A study of Homo sapiens with 6 samples.

Results

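Cohesin, condensin and the other proteins that shape chromosomes were followed through 38 listed genes in RKO cells, a human colon carcinoma line. Members were taken by gene symbol from the annotated array table, counting only probe sets assigned to 1 gene, and 37 of the 38 were found, with 111 probe sets among the 37458 of all 15894 genes tested. PTTG1, which encodes securin, is the exception, because its probe set is shared with the copy PTTG3P. The comparison was between RKO cells carrying a short hairpin RNA against the circular RNA hsa_circ_0064559 (shCIRC, 3 arrays) and RKO cells carrying the control vector (shEV, 3 arrays), which the labels call empty while also listing a nonsense hairpin. All cells were grown in DMEM with fetal bovine serum, transfected with Lipofectamine and kept until stably transfected, and the methods accept cultures in which only part of the cells carry the vector. One hairpin was set against 1 control, so effects of the circular RNA and other effects of the hairpin cannot be told apart, and the level of the circular RNA itself was not analysed here.

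Cohesin is a ring that holds sister chromatids together from replication to anaphase and, with CTCF, folds interphase chromatin into loops. Condensin is a related ring that winds chromatin into the compact rods seen in mitosis, where topoisomerase II removes the entanglements. Several of these genes are transcribed mainly in dividing cells, from S phase to mitosis, while the core of cohesin is needed throughout the cycle.

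The 6 arrays were close in scale, but not equal. Values are log2 signals that the authors had normalized between arrays, so that a difference of 1 is a factor of 2. The array medians lay between 7.69 and 7.74 over the annotated probe sets and between 8.06 and 8.15 over the genes tested. Centring the arrays on their median moved log2 fold changes upward, for SMC1A from 0.03 to 0.10. Correlations across genes were 0.998 to 0.999 within a group and 0.990 between groups. The number of arrays limits the precision, and as the labels leave unsaid whether a group's 3 samples were separate cultures, the p-values refer to the spread among these samples alone, which may be technical. The difference between the 3′ and 5′ probe sets of the control transcripts, which reflects RNA quality, was lower in shCIRC, with -0.30 ± 0.02 in shCIRC and -0.16 ± 0.02 in shEV for GAPDH, and -0.01 ± 0.03 in shCIRC and 0.13 ± 0.02 in shEV for ACTB (SD, n = 3 each). The part of these shifts in the results was not tested. Of 10 colon epithelium markers 7 were measured, of which EPCAM and KRT18 were lower and KRT8 was higher, and their summed level was 11.51 to 11.57 in shCIRC and 11.71 to 11.79 in shEV. KRT20, CDH1 and VIL1 were not among the genes tested. The summed level of the 3 measured of 6 fibroblast markers was 7.38 to 7.47 in shCIRC and 7.35 to 7.47 in shEV, and that of the 4 endothelium markers 7.76 to 7.88 in shCIRC and 7.83 to 7.89 in shEV. Of 6 leukocyte markers 4 were measured. Their sum was 12.07 to 12.13 in shCIRC and 13.29 to 13.33 in shEV, set by CD68, a lysosomal protein not confined to leukocytes, while PTPRC and CD14 were not among the genes tested. The part of this marker in the results was not tested.

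Most of the chromosome structure genes were lower in shCIRC cells. Of the 37 measured genes, 22 were lower, 8 were higher and 7 did not pass the test at an adjusted p under 0.05 from limma over all genes. Among all genes tested, 24.7% were lower, 22.8% were higher and 47.5% passed in either direction. The median log2 fold change was -0.22 over these 37 genes and -0.0045 over all genes. With a fold above 1.3 added, 13 of the 37 were lower and 0 were higher, against 9.42% lower and 7.44% higher of all genes. On 23 genes all 3 shCIRC arrays lay below all 3 shEV arrays and on 8 they lay above, which was the case for 29% and 27% of all genes, or 56% together. All 37 genes lay above the median level of the genes tested, where passing was more common in both directions. With only the genes above that level tested, 3078 of them were lower and 3055 higher, with 22 and 8 of the 37. The shares of all genes given here are therefore too low a background for genes this bright. Taken in either direction, 30 of the 37 passed, and this is not read as more than in other bright genes. Lower and higher calls were nearly equal in number among the bright genes, but not among the 37. In bulk RNA, fewer cells in S phase or mitosis and less of a transcript per cell cannot be told apart.

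**Figure D1:**
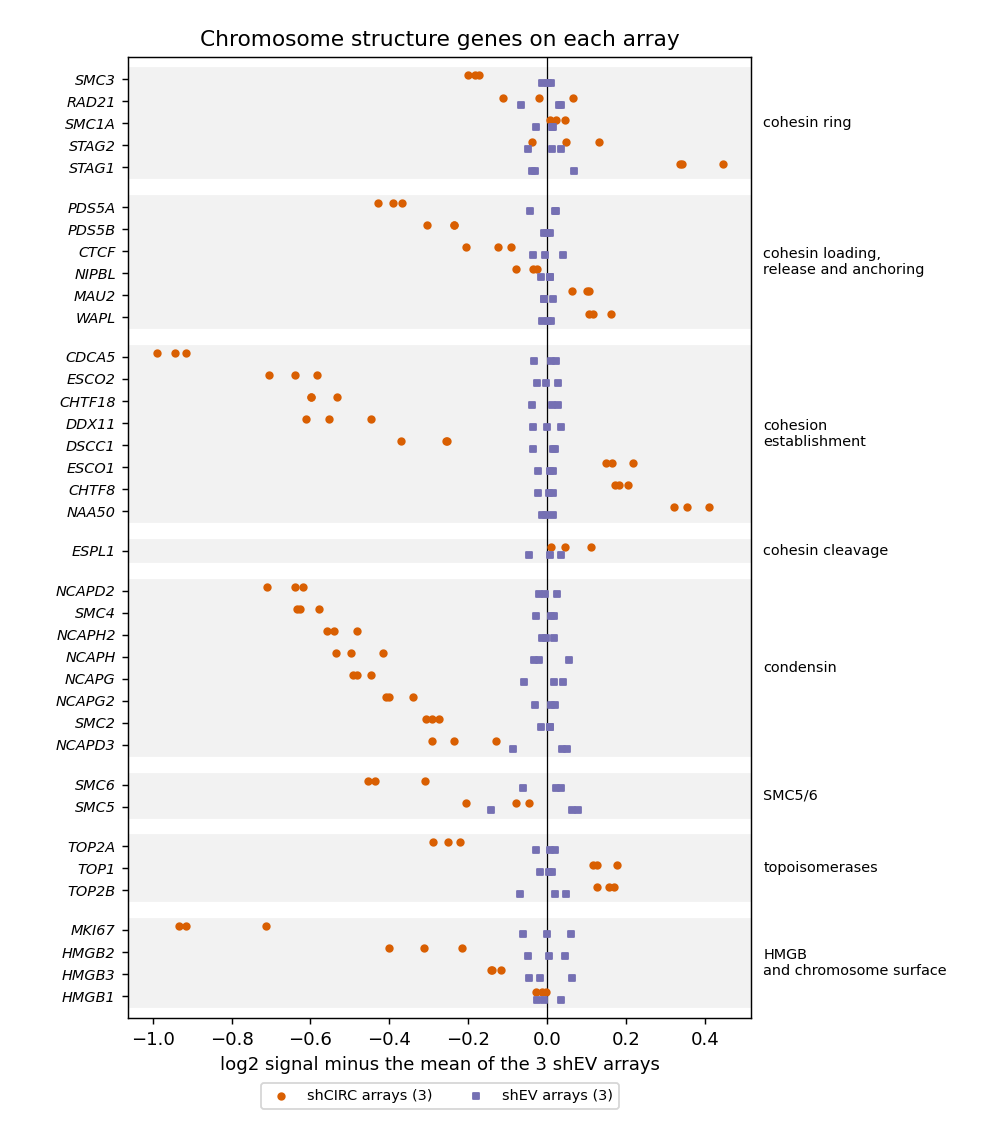
Log2 signal of each array minus the mean of the 3 shEV arrays, for the 37 chromosome structure genes in 8 groups (circles, shCIRC; squares, shEV). The condensin genes lie to the left of 0 on every shCIRC array, while the cohesin ring is split, with STAG1 to the right and SMC3 to the left.

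Promoters are shown for 6 of the genes, since many lower genes share short motifs there. In the RefSeq promoters of GRCh38.p14, which run from 250 bases before to 50 bases after the start, 31 of the 37 genes were matched. The CHR element (TTTGAA or TTCGAA) and the core of E2F sites (TTCCCGC, its variant TTGGCGC and the further variant TTCGCGC) are known for promoters of genes expressed in dividing cells, and both strands were searched. None of these words contains another. The 200 bases before the start are given for CDCA5 (chr11:65084041-65084240, minus strand), MKI67 (chr10:128126424-128126623, minus strand), NCAPG (chr4:17810779-17810978, plus strand) and SMC4 (chr3:160399450-160399649, plus strand), which fell, and for STAG1 (chr3:136752379-136752578, minus strand) and NAA50 (chr3:113746250-113746449, minus strand), which had the largest increases. They read 5′ to 3′ toward the start, and capitals mark a CHR or E2F word or its reverse complement. SMC4 has a second promoter further downstream, in which neither kind of word was found. The lower genes shown were not chosen by the size of their change alone, and each holds a CHR word. CHTF18 (-0.58), DDX11 (-0.54) and NCAPH (-0.48) fell further than NCAPG (-0.47) and hold none. TOP2B, which was higher and is not shown, holds 1 in 1 of its 2 promoters.
CDCA5: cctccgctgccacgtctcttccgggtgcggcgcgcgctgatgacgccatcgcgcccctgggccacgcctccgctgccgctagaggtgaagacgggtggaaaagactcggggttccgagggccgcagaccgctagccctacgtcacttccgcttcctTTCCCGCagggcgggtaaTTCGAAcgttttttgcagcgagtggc
MKI67: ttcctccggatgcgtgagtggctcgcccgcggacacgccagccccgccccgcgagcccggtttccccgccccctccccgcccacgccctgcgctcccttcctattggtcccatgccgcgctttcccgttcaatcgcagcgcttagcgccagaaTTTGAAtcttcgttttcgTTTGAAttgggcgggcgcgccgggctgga
NCAPG: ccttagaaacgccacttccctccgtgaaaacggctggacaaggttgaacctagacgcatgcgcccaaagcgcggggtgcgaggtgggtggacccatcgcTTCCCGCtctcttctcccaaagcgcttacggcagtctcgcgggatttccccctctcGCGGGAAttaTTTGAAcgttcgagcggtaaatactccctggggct
SMC4: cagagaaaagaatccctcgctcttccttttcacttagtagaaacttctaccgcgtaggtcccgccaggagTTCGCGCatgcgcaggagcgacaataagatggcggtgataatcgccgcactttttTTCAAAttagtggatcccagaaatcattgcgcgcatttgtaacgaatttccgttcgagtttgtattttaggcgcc
STAG1: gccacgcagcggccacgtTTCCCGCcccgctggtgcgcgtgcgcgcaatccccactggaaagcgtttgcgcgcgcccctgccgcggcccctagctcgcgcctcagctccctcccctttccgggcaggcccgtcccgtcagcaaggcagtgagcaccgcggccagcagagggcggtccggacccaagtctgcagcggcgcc
NAA50: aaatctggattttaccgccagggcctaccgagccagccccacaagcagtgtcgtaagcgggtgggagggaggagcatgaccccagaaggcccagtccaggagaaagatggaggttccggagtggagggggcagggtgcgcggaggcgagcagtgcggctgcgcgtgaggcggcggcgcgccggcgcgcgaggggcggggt

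A CHR word was found in 13 of 18 lower genes with a matched promoter (72.2%), in 1 of 7 higher genes and in 2 of 6 that did not pass. Among the lower genes with a fold above 1.3 the share was smaller, 6 of 11 (54.5%). The share was 16.4% among the 12516 tested genes with a promoter and 19.5% among all 27305 genes with one. An E2F word was found in 9 of 18 lower genes, 2 of 7 higher genes and 4 of 6 that did not pass, and in 19.4% of the tested genes and 13.1% of all genes with a promoter. The CCAAT box was found in 9 of 18, 3 of 7 and 3 of 6, and in 42.4% of the tested genes and 39.7% of all. A gene with several promoters was counted once, and these counts are descriptions of letters in a window.

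Condensin was the group that moved as one. All 8 genes, the SMC pair and both sets of regulatory subunits, were lower in shCIRC, with log2 fold changes from -0.66 to -0.22 and a median of -0.48, and 6 of them fell by more than 1.3-fold. The counts in this and the other groups stand beside 24.7% lower and 22.8% higher of all genes, and 9.42% lower by more than 1.3-fold. As said above, these shares are too low a background for genes this bright. SMC4, one of the coiled-coil ATPases shared by condensin I and II, had log2 signals of 11.20, 11.14 and 11.15 on the shCIRC arrays, against 11.79, 11.75 and 11.79 on the shEV arrays, a log2 change, shCIRC minus shEV, of -0.61 (standard error, SE, 0.03, limma adjusted p = 1.5e-05). Its partner SMC2 had 9.85, 9.84 and 9.87 in shCIRC, against 10.15, 10.15 and 10.13 in shEV, a log2 change of -0.29 (SE 0.03), which did not pass on 2 of its 7 probe sets. The shCIRC arrays lay below the shEV arrays for both ATPases, and SMC4 fell further than SMC2.

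The subunits of condensin I, which acts after the nuclear envelope breaks down, were lower on every shCIRC array. NCAPD2, a HEAT-repeat subunit, had 9.76, 9.84 and 9.86 in shCIRC, against 10.47, 10.50 and 10.45 in shEV, a log2 change of -0.66 (SE 0.04, limma adjusted p = 1.8e-05), the largest of the condensin genes. NCAPG, the other HEAT-repeat subunit, had 9.50, 9.54 and 9.49 in shCIRC, against 10.02, 10.00 and 9.92 in shEV, a log2 change of -0.47. NCAPH, the kleisin that closes the ring, had 8.58, 8.66 and 8.54 in shCIRC, against 9.13, 9.05 and 9.04 in shEV, a log2 change of -0.48. The median of these 3 subunits was -0.48.

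Condensin II, which is nuclear throughout the cycle and starts compaction in prophase, was lower too, with a median of -0.38 over its 3 subunits. Its kleisin NCAPH2 had 9.52, 9.58 and 9.50 in shCIRC, against 10.06, 10.05 and 10.08 in shEV, a log2 change of -0.53 (SE 0.03, limma adjusted p = 2.9e-05). NCAPG2 had 9.79, 9.73 and 9.72 in shCIRC, against 10.10, 10.15 and 10.14 in shEV, a log2 change of -0.38. Both genes were separated between the groups by more than the spread of the arrays. NCAPD3, a HEAT-repeat subunit, had 8.29, 8.12 and 8.18 in shCIRC, against 8.45, 8.33 and 8.47 in shEV, the smallest change of the group with -0.22 (SE 0.06, limma adjusted p = 0.017). The lowest shEV array of NCAPD3 lay just above the highest shCIRC array, and its call was lost without shCIRC replicate 2 or 3 or shEV replicate 1 or 3 (limma adjusted p 0.052 to 0.060). It was also lost with quantile normalization again (-0.16, limma adjusted p = 0.063), with arrays centred on their median (-0.15, limma adjusted p = 0.072) and with the methods' t-test, so that in these settings 7 of the 8 condensin genes passed.

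The cohesin ring did not move as one. Of its 5 genes 1 was lower, 1 was higher and 3 did not pass, with a median log2 change of 0.03. SMC3, an ATPase of the ring, was at 11.13 ± 0.01 in shCIRC and 11.32 ± 0.01 in shEV (SD, n = 3 each), a log2 change of -0.19 (SE 0.03, limma adjusted p = 0.0015). SMC1A, the other ATPase, had a log2 change of 0.03 (95% interval -0.05 to 0.10), and RAD21, the kleisin that separase cuts, had -0.02 (95% interval -0.15 to 0.11). The 4 probe sets of RAD21 ranged from -0.02 to 0.01. STAG1 and STAG2 encode alternative subunits of the ring. STAG1 had 9.58, 9.48 and 9.47 in shCIRC, against 9.20, 9.09 and 9.10 in shEV, a log2 change of 0.37 (SE 0.05, limma adjusted p = 0.00060) and the largest increase of the 37 genes. STAG2 had 10.66, 10.49 and 10.58 in shCIRC, against 10.56, 10.48 and 10.54 in shEV, and these overlapped, with a log2 change of 0.05 (95% interval -0.07 to 0.17). Of the 4 probe sets of STAG2, however, 2 were higher (0.20 and 0.14), and with the mean of all probe sets STAG2 had 0.11 (limma adjusted p = 0.023) and STAG1 had 0.21.

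Among the genes that load, release and anchor cohesin, 3 of 6 were lower and 2 were higher. PDS5A and PDS5B encode related proteins that bind the ring and act both in its release and in its maintenance. PDS5A had 9.92, 9.90 and 9.86 in shCIRC, against 10.31, 10.25 and 10.31 in shEV, a log2 change of -0.40 (SE 0.03, limma adjusted p = 0.00011). PDS5B had 9.83, 9.76 and 9.83 in shCIRC, against 10.06, 10.06 and 10.07 in shEV, a log2 change of -0.26 (limma adjusted p = 0.00059). Both were lower on every shCIRC array. WAPL, listed under its older name WAPAL, encodes the factor that opens the ring and was slightly higher, with 9.94, 10.00 and 9.95 in shCIRC, against 9.84, 9.82 and 9.85 in shEV (log2 fold change 0.13, limma adjusted p = 0.011).

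NIPBL, the larger part of the cohesin loader, had a log2 change of -0.05 (limma adjusted p = 0.26) on its brightest probe set, while another, almost as bright, was higher with 0.18 (limma adjusted p = 0.0053). MAU2, its partner, had 9.70, 9.69 and 9.65 in shCIRC, against 9.58, 9.61 and 9.58 in shEV, a log2 change of 0.09 (limma adjusted p = 0.043), and this call was lost without any 1 of the 6 arrays (limma adjusted p 0.056 to 0.12). CTCF, the zinc finger protein at which loops stop, was at 9.46 ± 0.06 in shCIRC and 9.60 ± 0.04 in shEV (SD, n = 3 each), a log2 change of -0.14 (limma adjusted p = 0.029). The call of CTCF was lost without shCIRC replicate 2 or 3 or shEV replicate 1 or 2 (limma adjusted p 0.055 to 0.095). It was also lost with arrays centred on their median (-0.07, limma adjusted p = 0.25) and with quantile normalization again (-0.11, limma adjusted p = 0.088). The same held with cyclic loess scaling (-0.13, limma adjusted p = 0.053) and with the methods' t-test.

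Cohesion establishment held the largest decrease and a split between related genes. All 8 genes passed, 5 lower and 3 higher. Of all genes 47.5% passed, a share too low for genes this bright. CDCA5, which encodes sororin, the protein that protects cohesin from WAPL after replication, had 9.79, 9.75 and 9.82 in shCIRC, against 10.71, 10.75 and 10.76 in shEV. Its log2 change of -0.95 (SE 0.03, limma adjusted p = 4.4e-06) was the lowest of the 37 genes, 1.93-fold lower in shCIRC, and 0.956% of all genes had a change as low or lower. ESCO2, the acetyltransferase that acts on SMC3 in S phase, had 9.68, 9.56 and 9.62 in shCIRC, against 10.26, 10.23 and 10.29 in shEV, a log2 change of -0.64 (limma adjusted p = 2.8e-05). Its relative ESCO1, which acts throughout interphase, had 9.80, 9.86 and 9.79 in shCIRC, against 9.65, 9.62 and 9.65 in shEV, a log2 change of 0.18 (limma adjusted p = 0.0037). The 2 acetyltransferase genes thus passed in opposite directions.

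CHTF18, DSCC1 and CHTF8 encode the parts that turn the replication factor C clamp loader into a form used for cohesion. CHTF18 had 9.00, 9.07 and 9.00 in shCIRC, against 9.61, 9.63 and 9.56 in shEV, a log2 change of -0.58 (SE 0.04, limma adjusted p = 2.6e-05). DSCC1 was at 9.48 ± 0.07 in shCIRC and 9.77 ± 0.03 in shEV (SD, n = 3 each), a log2 change of -0.29. CHTF8 moved the other way, with 11.10, 11.12 and 11.09 in shCIRC, against 10.90, 10.92 and 10.93 in shEV, a log2 change of 0.19 (limma adjusted p = 0.0018). CHTF8 has 1 probe set only.

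DDX11, a DNA helicase of cohesion, had 8.83, 8.73 and 8.67 in shCIRC, against 9.24, 9.32 and 9.28 in shEV, a log2 change of -0.54 (SE 0.05, limma adjusted p = 0.00014). DDX11 has near-identical copies, and its probe sets can read them. With the mean of its 3 probe sets the change was -0.16 and did not pass (limma adjusted p = 0.18). NAA50, an N-terminal acetyltransferase needed for cohesion, had 11.53, 11.62 and 11.56 in shCIRC, against 11.22, 11.19 and 11.20 in shEV, a log2 change of 0.36 (limma adjusted p = 0.00017). ESPL1, which encodes separase, the protease that cuts RAD21 at anaphase, had a log2 change of 0.06 (95% interval -0.04 to 0.15, limma adjusted p = 0.31). The probe set shared by PTTG1, the inhibitor of separase, and PTTG3P stood at 11.26 ± 0.02 in shCIRC and 11.96 ± 0.05 in shEV (SD, n = 3 each), a log2 change of -0.70 (limma adjusted p = 1.5e-05 over probe sets), and it is not counted among the 37.

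**Figure D2:**
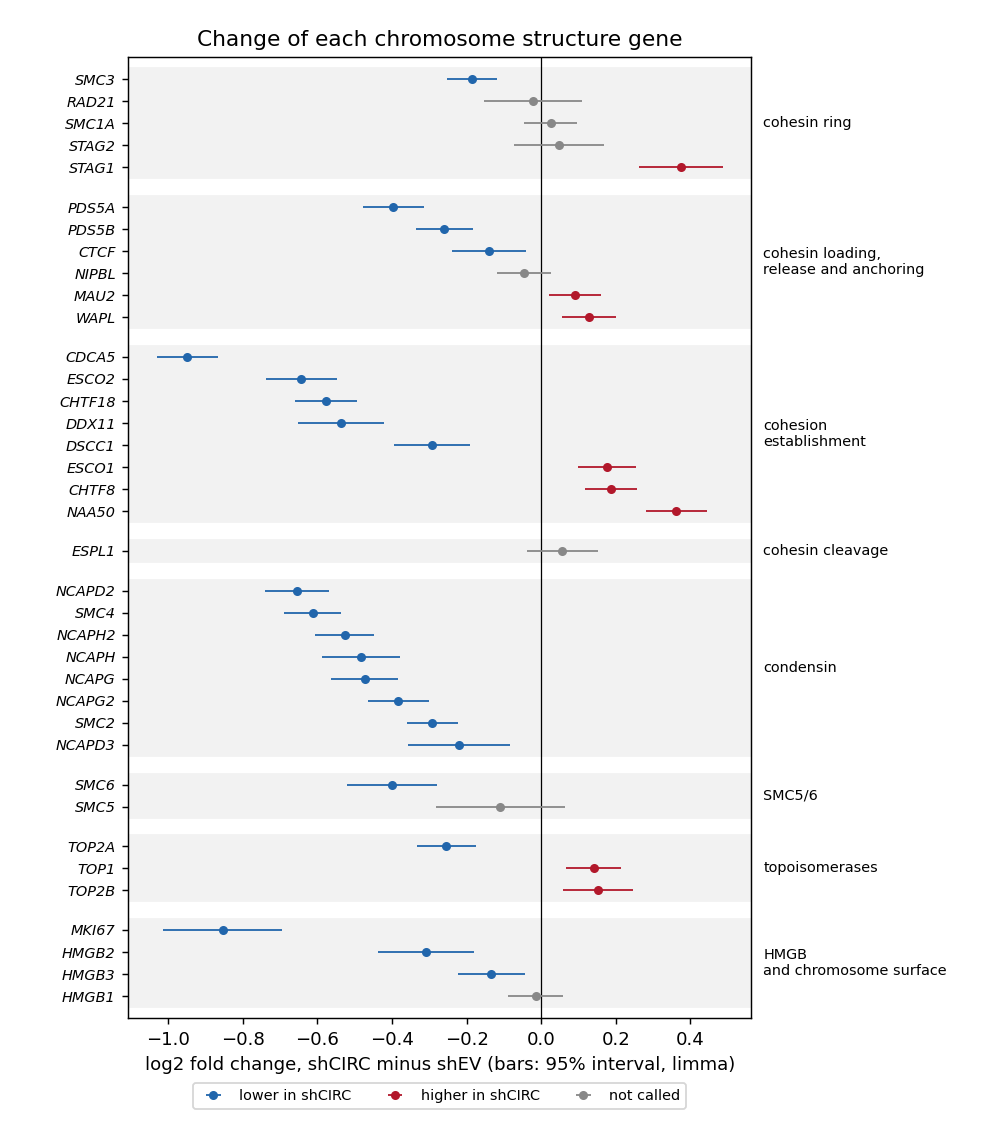
Log2 fold change of each of the 37 genes, shCIRC minus shEV, with the 95% interval from limma. The intervals of all 8 condensin genes lie below 0, and CDCA5 and MKI67 have the lowest values, -0.95 and -0.85.

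The SMC5/6 ring, which acts in recombination and replication repair, gave 1 lower gene of 2. SMC6 had 8.28, 8.26 and 8.41 in shCIRC, against 8.74, 8.75 and 8.66 in shEV, a log2 change of -0.40 (SE 0.05, limma adjusted p = 0.00063). SMC5 had 9.48, 9.32 and 9.45 in shCIRC, against 9.59, 9.61 and 9.39 in shEV, and the arrays overlapped, with a log2 change of -0.11 (95% interval -0.28 to 0.06). SMC5 passed only without shEV replicate 3, with -0.18 (limma adjusted p = 0.048). Its 3 probe sets had -0.11, -0.01 and 0.23, of which none passed, and the mean of all probe sets gave 0.03.

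Of the 3 topoisomerase genes 1 was lower and 2 were higher. TOP2A, the form of topoisomerase II made in proliferating cells, had 10.85, 10.92 and 10.89 in shCIRC, against 11.16, 11.15 and 11.11 in shEV, a log2 change of -0.25 (limma adjusted p = 0.00071). TOP2B, the form also made in resting cells, had 12.61, 12.57 and 12.60 in shCIRC, against 12.46, 12.37 and 12.49 in shEV, a log2 change of 0.15 (limma adjusted p = 0.017). TOP1, which relaxes supercoils during transcription and replication, had 12.95, 12.90 and 12.89 in shCIRC, against 12.79, 12.76 and 12.78 in shEV, a log2 change of 0.14 (limma adjusted p = 0.0091). TOP2A was thus lower and the other 2 enzymes higher on every shCIRC array, though the call of TOP2B was lost without shCIRC replicate 1 or 3 (limma adjusted p 0.051 and 0.052).

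Of the HMGB proteins and Ki-67, 3 of 4 genes were lower. MKI67, whose product coats mitotic chromosomes and keeps them apart, had 9.64, 9.86 and 9.66 in shCIRC, against 10.64, 10.58 and 10.52 in shEV, a log2 change of -0.85 (SE 0.07, limma adjusted p = 7.3e-05). The 3 HMGB genes encode related proteins that bend DNA. HMGB2 was at 12.02 ± 0.09 in shCIRC and 12.33 ± 0.05 in shEV (SD, n = 3 each), with -0.31 (limma adjusted p = 0.0029), and HMGB3 at 9.74 ± 0.01 in shCIRC and 9.88 ± 0.06 in shEV, with -0.13 (limma adjusted p = 0.023). HMGB1, the abundant form of most tissues, had -0.01 (95% interval -0.09 to 0.06). The call of HMGB3 was lost without shCIRC replicate 1 or 2 or shEV replicate 1 (limma adjusted p 0.057 to 0.067), and its log2 fold change was -0.06 with arrays centred on their median.

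To ask whether related genes changed by unequal amounts, the difference between their log2 signals was taken on each array and compared between the groups for 15 pairs. In 13 pairs the 3 shCIRC arrays did not overlap the 3 shEV arrays (two-sided p = 0.1 by an exact permutation test, which can go no lower with 3 arrays a group, and 0.115 after Benjamini-Hochberg adjustment over the pairs). The groups did not overlap in 56% of all single genes, and the share among pairs of other genes was not computed. The count of 13 is therefore a description of these pairs only. The widest gap was that of CDCA5 and its opponent WAPL, whose difference was lower in shCIRC by -1.08 on the log2 scale (SE 0.04). ESCO2 against ESCO1 followed with -0.82 (SE 0.05). TOP2A changed by -0.41 relative to TOP2B and by -0.39 relative to TOP1, and HMGB2 by -0.29 relative to HMGB1. That last difference rests on the brightest probe set of HMGB1 (-0.01), while 4 of its 7 were lower, down to -0.25. SMC2 changed by 0.32 relative to SMC4. STAG1 changed by 0.33 relative to STAG2, but by 0.09 with the mean of all probe sets.

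Of the 3 pairs of condensin I and II counterparts, the arrays of 1 did not overlap. NCAPD2 changed by -0.44 relative to NCAPD3 (SE 0.09, exact permutation p = 0.1, the smallest possible). NCAPG changed by -0.09 relative to NCAPG2 (95% interval -0.23 to 0.05, exact permutation p = 0.2) and NCAPH by 0.04 relative to NCAPH2 (95% interval -0.05 to 0.14, exact permutation p = 0.3), and the arrays of these 2 pairs overlapped. The smaller separated differences were those of PDS5A relative to PDS5B, with -0.14, of HMGB3 relative to HMGB1, with -0.12 (95% interval -0.24 to 0.01), and of SMC2 relative to SMC3, with -0.11. With the mean of all probe sets the difference of PDS5A and PDS5B turned to 0.03, and that of HMGB3 and HMGB1 was -0.04, while quantile normalization again gave -0.06 for HMGB3 and HMGB1. The arrays of both pairs overlapped in these settings. The difference of SMC2 and SMC3 was -0.07 with the mean of all probe sets. SMC5 changed by 0.29 relative to SMC6 (0.51 with the mean of all probe sets) and SMC1A by 0.21 relative to SMC3.

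**Figure D3:**
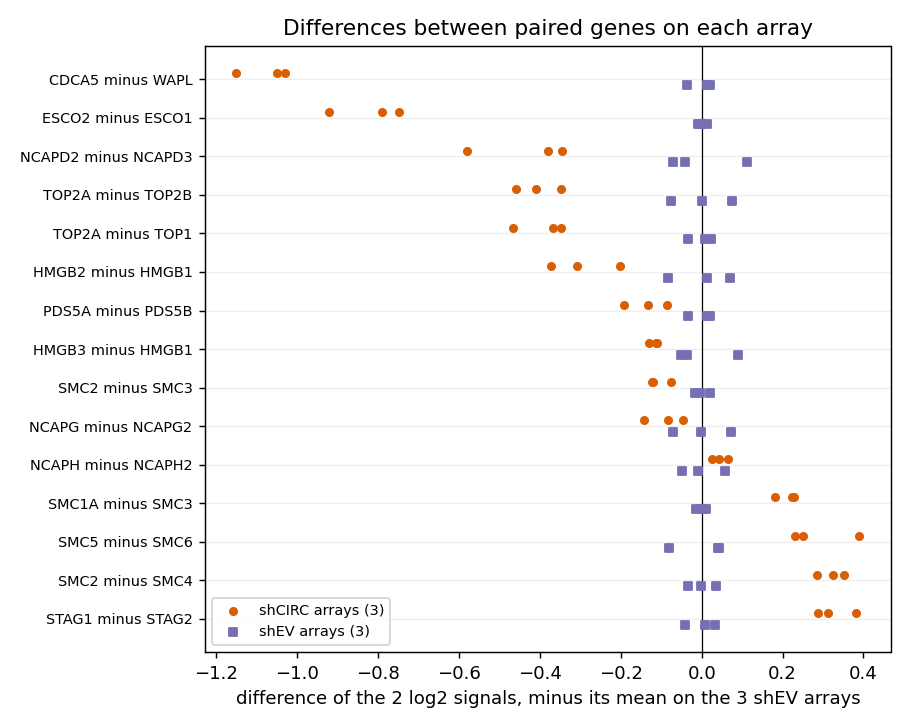
Difference between the log2 signals of 2 related genes on each array, minus its mean on the 3 shEV arrays, for 15 pairs (circles, shCIRC; squares, shEV). The arrays overlap only for NCAPG with NCAPG2 and NCAPH with NCAPH2.

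Other probe sets of the same genes were used as a check, since PrimeView often holds several that read different parts or forms of a transcript. Of the 37 genes 33 have more than 1. The 22 lower genes have 38 other probe sets, of which 27 were lower, 10 did not pass and 1 was higher, and the 8 higher genes have 15 others, of which 8 were higher and 7 did not pass (limma over all probe sets, by which 24.6% of all probe sets were lower and 25.6% higher). Every probe set passed downward in 13 of the 37 genes and upward in 3, against 14.8% and 14.6% of all genes. All 6 probe sets of MKI67 were lower, from -1.80 to -0.75, the 4 of SMC4 from -0.61 to -0.43 and the 3 of TOP2A from -0.33 to -0.25. Both probe sets of CDCA5 (-0.95 and -0.60), of NCAPD2 (-0.66 and -0.59), of NCAPG (-0.47 and -0.37) and of SMC6 (-0.54 and -0.40) were lower, and the 3 of TOP2B were higher, from 0.15 to 0.16.

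Probe sets called in both directions were found in 2 genes. The brightest probe set of SMC1A did not pass, while 2 dimmer ones were lower (-0.20 and -0.30) and the 2 dimmest higher (0.30 and 0.45). In PDS5A 3 were lower, from -0.62 to -0.40, and 1 was higher with 0.17. SMC2 had 5 of 7 probe sets lower, from -0.54 to -0.23, while the second brightest, almost as bright as the first, had -0.11 (limma adjusted p = 0.18) and another had -0.10 (limma adjusted p = 0.057). For CHTF18, DDX11, NCAPG2 and NCAPH2 a much dimmer probe set did not pass, with 0.05 for CHTF18, -0.01 and 0.08 for DDX11, -0.02 for NCAPG2 and -0.06 for NCAPH2. The other probe sets of lower genes that did not pass were 1 each of SMC3 (-0.20), NCAPH (-0.28) and HMGB2 (-0.36). With the mean of all probe sets the change was -0.26 for CHTF18, -0.29 for NCAPH2 and 0.20 for NAA50, and it was larger for MKI67 (-1.29) and DSCC1 (-0.46). DDX11 also has 4 probe sets shared with copies, with log2 fold changes of -0.59, -0.53, -0.35 and -0.10, of which 2 passed. HMGB1 did not pass on its brightest probe set, but 4 of its 7 were lower, the lowest by -0.25. STAG1 rose on 2 of 3 probe sets (0.37 and 0.21, and 0.03 on the third) and NAA50 on 3 of 4. The 3 probe sets of MAU2 ranged from -0.07 to 0.09 and none passed over probe sets, the brightest with a limma adjusted p = 0.052.

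**Figure D4:**
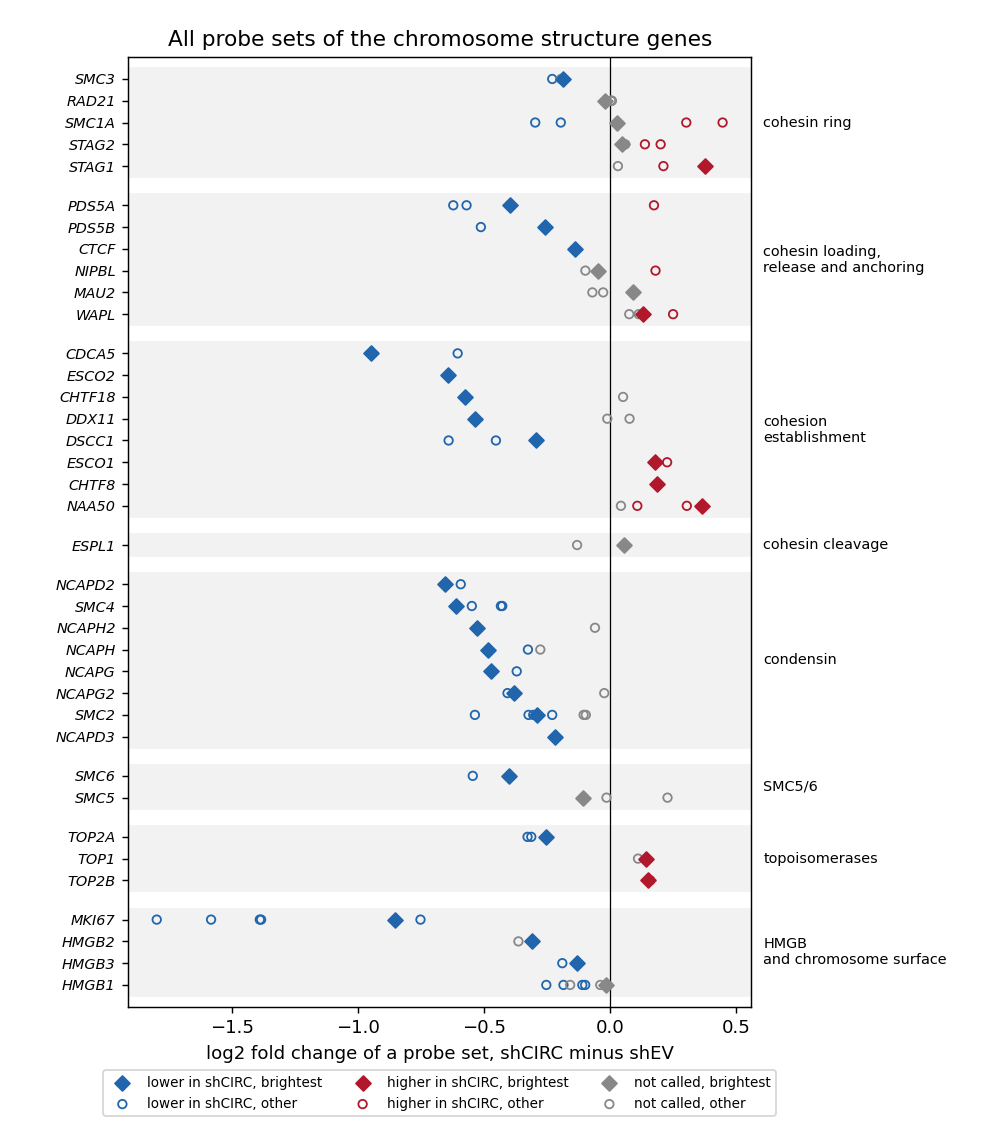
Log2 fold change of each of the 111 probe sets of the 37 genes (filled diamonds, brightest probe set; open circles, others; blue, lower; red, higher; grey, not past an adjusted p of 0.05). MKI67 spans -1.80 to -0.75 with all probe sets lower, while SMC1A and PDS5A have probe sets on both sides of 0.

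Genes that work beside these complexes are given as counts from the same fit, in which 24.7% of all genes were lower and 22.8% higher. Of 11 clamp loading and replication fork genes, 10 were lower and 1, TIPIN, was higher, the median log2 change being -0.36, and the largest decreases were those of CLSPN, a checkpoint mediator, with -1.07, RFC3, a subunit of the clamp loader, with -0.76, ATAD5, which unloads the clamp, with -0.62 and TIMELESS, a fork protection protein, with -0.47. The other probe sets changed less for RFC3 (as little as -0.15) and TIMELESS (-0.08), and the 3 of TIPIN ranged from -0.04 to 0.12. Of 11 genes that protect or release cohesion at centromeres, 8 fell and 2 rose, the median being -0.40. HASPIN, a kinase of histone H3 at centromeres, had -0.89, AURKB, the kinase of the chromosomal passenger complex, -0.75 and SGO1, shugoshin, which protects centromeric cohesin, -0.53. HDAC8, which removes the acetyl group from SMC3, was higher with 0.54, though its 7 probe sets ranged from -0.14 to 0.54.

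The counts that follow stand beside the same 24.7% lower and 22.8% higher of all genes. Of 8 condensin partners and compaction genes, 4 fell and 3 rose, the median being 0.03. KIF4A, a motor protein of the chromosome axis, had -0.98 (limma adjusted p = 4.1e-06) and NUSAP1 -0.28, while AKAP8L had 0.32 and AKAP8, a chromatin anchor protein, 0.25. Of 6 measured SMC5/6 partners 2 were lower, with SLF2 at -0.49 and NSMCE4A at -0.15, and 2 were higher, with NSMCE3 at 0.60 and NSMCE2 at 0.21. The probe sets of SLF2 ranged from -0.49 to -0.08 and those of NSMCE4A from -0.18 to -0.03. Of 12 other topoisomerase and HMG genes 4 were lower and 4 higher. HMGN2, a nucleosome-binding protein, had -1.001. HMGA1 had -0.46 on its brightest probe set, but its 3 probe sets ranged from -0.46 to 0.003. Its relative HMGA2 had 0.70 on its brightest probe set and as little as -0.05 on others. Among the loop partners, the zinc finger factor ZNF143 was higher with 1.01. LDB1 was lower with -0.20 on its brightest probe set and had 0.07 on the other. Of the germline forms of cohesin SMC1B and REC8 were measured, with level percentiles of 2.18 and 16.2, with changes of 0.02 (not past the test) and 0.31 (limma adjusted p = 0.046).

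Positions of the main genes are those of the deposited annotation, whose genome build none of the sources used here gives. CDCA5 lies on chromosome 11 from 64844924 to 64851623, MKI67 on chromosome 10 from 129894922 to 129924655 and NCAPD2 on chromosome 12 from 6602521 to 6641125. SMC4 lies on chromosome 3 from 160131589 to 160152743, and STAG1 and NAA50 on the same chromosome from 136055077 to 136471258 and from 113440303 to 113458434. ESCO2 lies on chromosome 8 from 27631902 to 27662802 and ESCO1 on chromosome 18 from 19109241 to 19180693.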

How the data were processed

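Gene expression of RKO cells was measured on 6 Affymetrix PrimeView arrays, 3 of shCIRC and 3 of shEV, grouped by their labels. The authors quantile-normalized the signals in R and deposited log2 values for 49395 probe sets and, with annotation, for the 39269 above the 20th percentile on at least 4 arrays. Values shared by both tables differed in 0 cases. The submitters' processing notes name GCOS 1.4. Background correction and probe summarization are stated by none of the sources used here, and the filter removes low transcripts. The annotated table also holds the authors' fold changes, p-values and FDR, which were not used.

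Control probe sets (73) and those naming several genes (1539) or none (199) were left out. Symbols were updated by Entrez number with RefSeq of GRCh38.p14 (37380 of 37458 probe sets matched), and the brightest probe set was kept for each gene. Groups were compared with limma 3.58.1 in R 4.3.3 and Benjamini-Hochberg adjustment over 15894 genes, which was tested on simulated data. Pairs of genes were compared by an exact permutation test. Genes past the threshold and at least 0.38 in size on the log2 scale, those that rose and the other gene of their pairs are given per array, and the related genes by up to 4 of the largest changes past the threshold in each list. One result among the loop partners is not reported here. The members and lists were chosen with earlier results of these data known. Alternatives were other scalings, probe set uses, a brightness filter, tests (the methods' t-test among them), thresholds, a replicate block and leaving out each array.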

Additional observations from a re-analysis of the deposited data

How the results depend on the processing

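The 22 lower and 8 higher genes became 13 and 3 where every probe set had to pass and 13 and 0 with a fold above 1.3, and 5 were higher at an adjusted p under 0.01. Over all genes, 3928 lower and 3618 higher became 2360 and 2323, and 1498 and 1183, under the first 2 of these settings. With arrays centred on their median, 3000 genes were lower and 5059 higher over all genes, and 19 and 10 among the chromosome structure genes. Their median log2 fold change of -0.22 was -0.19 with quantile normalization again, -0.15 with arrays centred on their median, -0.20 with the mean of all probe sets and -0.25 to -0.19 without any 1 array, where 19 to 22 genes were lower and 6 to 7 higher.

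The probe set furthest against the sign of the brightest had the opposite sign in SMC1A (-0.30), NIPBL (0.18), MAU2 (-0.071), PDS5A (0.17), CHTF18 (0.051) and DDX11 (0.077). SMC1A and NIPBL had not passed on the brightest. The sign also turned for SMC5 (0.23), ESPL1 (-0.13) and RAD21 (0.0067), which did not pass on either. With the mean of all probe sets MAU2 had -0.0028, NCAPH minus NCAPH2 -0.068 and PDS5A minus PDS5B 0.033. The cause of these changes was not tested. With the methods' t-test and Benjamini-Hochberg adjustment 20 genes were lower and 8 higher. Same-numbered arrays of the 2 groups deviated together only weakly (r of 0.07, 0.09 and 0.10), although each of the 6 correlated best with its own number, and with the replicate number as a block 22 were lower and 7 higher, MAU2 losing its call.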
